A study of Mus musculus with 416 samples.

Results

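The RGS genes encode regulators of G-protein signalling, and 9 of them were followed here among the 46517 gene IDs of the table: Rgs2, Rgs4, Rgs5, Rgs7, Rgs8, Rgs9, Rgs10, Rgs14 and Rgs20. Each symbol matched 1 Ensembl ID, and all 9 passed the filter on low counts. Rgs2 (ENSMUSG00000026360), Rgs4 (ENSMUSG00000038530), Rgs5 (ENSMUSG00000026678), Rgs7 (ENSMUSG00000026527), Rgs8 (ENSMUSG00000042671) and Rgs20 (ENSMUSG00000002459) lie on chromosome 1. Rgs9 (ENSMUSG00000020599) lies on chromosome 11, Rgs10 (ENSMUSG00000030844) on chromosome 7 and Rgs14 (ENSMUSG00000052087) on chromosome 13. The samples were striata of 416 J:DO mice, the Diversity Outbred stock, whose animals each inherit a different mosaic of inbred founder strains. All were drug-naïve, and each gave 1 library. The labels give a sex and a breeding generation and no treatment, age or batch. There were 76 libraries labelled female and 74 labelled male in generation 21, 60 and 59 in generation 22, and 72 and 75 in generation 23. RNA was depleted of ribosomal RNA and sequenced as a bulk extract of the dissected tissue. A lower level of a transcript in such an extract cannot be told apart from fewer cells that carry it.

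RGS proteins act on the alpha subunits of heterotrimeric G proteins. A receptor loads the alpha subunit with GTP, and an RGS protein speeds the hydrolysis of that GTP, which ends the signal. In spiny projection neurons of the striatum, dopamine, adenosine and some acetylcholine and glutamate receptors signal through G proteins. RGS proteins set how long each such signal lasts. The genes are grouped here by protein family. Rgs2, Rgs4, Rgs5 and Rgs8 are small proteins of the R4 family. Rgs7 and Rgs9 belong to the R7 family, whose members need the G protein subunit encoded by Gnb5 for their stability and are anchored to membranes by the protein of Rgs7bp. Rgs10 and Rgs14 belong to the R12 family, and Rgs20 belongs to the RZ family, which acts on the alpha subunit encoded by Gnaz.

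Libraries held 20331737 to 77458200 counts in total (median 43516282). In 29 libraries, 15 labelled female and 14 labelled male, the X-inactivation transcript Xist went against the labelled sex. A further set of 29 libraries had a low total (1 library) or a low correlation with the others, and 4 libraries were in both sets. Markers of the striatum were checked in every library. The summed level of 12 spiny projection neuron markers had a median of 10606 CPM. CPM is a gene's count relative to the scaled total of its library. By thalamic neuron markers, 3 libraries stood apart. All 3 were from generation 21 and among the 29 of low correlation. Their summed level of 8 thalamic neuron markers was 2609 CPM in female library 1, 4657 CPM in female library 34 and 3245 CPM in male library 35. In the other libraries that sum ran from 186.3 to 645 CPM. The spiny projection neuron sum was 2364, 835 and 5124 CPM in these 3 libraries. It ran from 2607 to 12955 CPM in the others, so the value of male library 35 lay inside their range. Female library 34 held Drd1 and Drd2, the defining dopamine receptor genes of the direct and indirect pathway neurons, at 1.53 CPM each, against medians of 309.9 and 126.1 CPM in the libraries outside the 3. Values without these 3 libraries are given beside many of the results below.

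Rgs4 and Rgs9 were the most abundant of the 9 transcripts. Genes were compared per kilobase of exon, with the length taken over all annotated exons of a gene. On that scale the median level was 148.2 CPM per kb for Rgs4 and 104.3 CPM per kb for Rgs9. Rgs2 followed at 35.1 CPM per kb, Rgs5 at 24.8 and Rgs8 at 21.996. The lower levels were those of Rgs20 at 11.1 CPM per kb, Rgs10 at 10.4, Rgs7 at 8.63 and Rgs14 at 7.33. Rgs4 stood above Rgs9 in 96.9% of libraries, Rgs9 above Rgs2 in 99.8%, and Rgs8 above Rgs20 in all 416. Neighbours in the order were less clearly apart lower down. Rgs5 exceeded Rgs8 in 72.4% of libraries and Rgs20 exceeded Rgs10 in 60.8%, and in both pairs the mean log2 ratio was smaller than its SD over libraries (0.55 and 0.17 SDs). The mean log2 ratio was also under 1 SD between Rgs10 and Rgs7 (0.76) and between Rgs7 and Rgs14 (0.68).

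**Figure D1:**
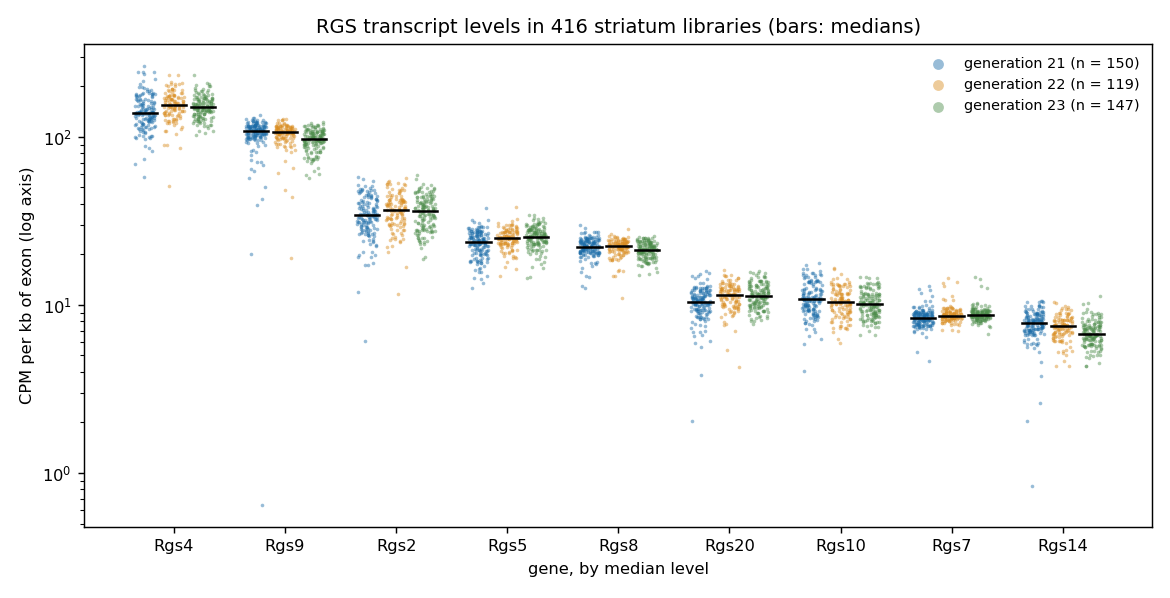
Each point is 1 library's level of an RGS transcript in CPM per kb of exon on a log axis, coloured by generation, and black bars are medians. The genes are ordered by their median over all libraries, from Rgs4 at 148.2 to Rgs14 at 7.33 CPM per kb. The isolated low point of Rgs9 is female library 34 of generation 21.

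The spread between libraries differed widely among the 9 genes. Rgs9, whose striatal splice form acts on dopamine and opioid receptor signalling, ran from 4.13 CPM in female library 34 of generation 21 to 856.4 CPM, with a median of 666.5. Its SD of log2 CPM, after sex and generation were removed, was 0.46, the widest of the 9. Without the 3 libraries high in thalamic markers this SD was 0.27, and without the 29 libraries of low correlation or low total it was 0.18. The spread of Rgs9 lay mostly in a few libraries.

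Rgs2, a fast-acting gene whose protein prefers the Gq class of alpha subunits, had the next widest spread (SD 0.38). It ran from 22.2 to 216.4 CPM with a median of 127.3, and it kept an SD of 0.32 without the 29 libraries. The residual SD was 0.31 for Rgs14, 0.30 for Rgs10, Rgs4 and Rgs20, and 0.24 for Rgs5. Rgs8 (0.18) and Rgs7 (0.16) varied least. Over the 5578 genes above a mean log2 CPM of 5, the median SD was 0.14. Rgs2 was wider than 95.9% of those genes, Rgs9 than 97.7% and Rgs7 than 64.3%. Over all 22968 genes, which include many of low count, the shares were 61.1%, 69.1% and 25.4%, and that of Rgs9 was 33.6% without the 29 libraries. Sex and generation took between 0.955% (Rgs9) and 6.16% (Rgs5) of the variance of each gene.

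The lowest values of several members came from the same libraries. Female library 34 of generation 21 held the lowest level of 5 members: Rgs2 (22.2 CPM), Rgs9 (4.13), Rgs10 (6.91), Rgs14 (3.54) and Rgs20 (8.68). The same library was not low for the other members. It held Rgs4 at 735.5 CPM, against a median of 459.1 in the libraries outside the 3, and Rgs8 at 263.2, against 212.04. Rgs7 stood there at 78.3 CPM, against 51.9, and Rgs5 at 127.2, against 112.6. Male library 35 of generation 21 had the highest Rgs8 of all libraries (286.1 CPM) with Rgs9 at 273.5 and Rgs14 at 11.1 CPM. In female library 1 of generation 21, the other library high in thalamic markers, Rgs9 stood at 127.8 CPM, Rgs14 at 8.68, Rgs4 at 400.7 and Rgs8 at 207.4. Rgs14 was below the range of the other libraries in all 3, while Rgs4 and Rgs8 were not below it in any. A different pattern was seen in male library 29 of generation 22, whose summed level of 10 cortical excitatory neuron markers was the highest at 1546 CPM. This library was among those of low correlation and among those whose Xist went against the labelled sex. Its sum of 10 hippocampal neuron markers, 761.1 CPM, was the highest as well. It held the lowest Rgs4 (157.6 CPM) and the lowest Rgs8 (105.98), with Rgs9 at 120.7 CPM, while Rgs14 stood at 37.6 CPM, above its median.

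The sequences before the start sites of genes that figure in the co-variation below are shown next. RefSeq's table (build GRCm38.p6) holds 7 of the 9 genes, and the 250 bases before each start are printed for Rgs2, Rgs4, Rgs8, Rgs9 and Egr4, the gene most like Rgs2 over libraries. Rgs2 lies at chr1:144004150-144004399 (minus strand), Rgs4 at chr1:169747643-169747892 (minus), the first of 3 starts of Rgs8 at chr1:153652787-153653036 (plus), Rgs9 at chr11:109298182-109298431 (minus) and Egr4 at chr6:85513590-85513839 (minus). Capitals mark matches, on either strand, to the CRE half-site TGACG, the GC box GGGCGG, the CCAAT box CCAAT and the TATA box TATAAA.
Rgs2: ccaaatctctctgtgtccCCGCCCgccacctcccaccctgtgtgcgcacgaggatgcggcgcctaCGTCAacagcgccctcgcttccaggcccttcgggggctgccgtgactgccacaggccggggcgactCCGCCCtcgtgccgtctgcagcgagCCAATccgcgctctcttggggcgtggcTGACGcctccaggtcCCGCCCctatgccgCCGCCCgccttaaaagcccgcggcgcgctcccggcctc
Egr4: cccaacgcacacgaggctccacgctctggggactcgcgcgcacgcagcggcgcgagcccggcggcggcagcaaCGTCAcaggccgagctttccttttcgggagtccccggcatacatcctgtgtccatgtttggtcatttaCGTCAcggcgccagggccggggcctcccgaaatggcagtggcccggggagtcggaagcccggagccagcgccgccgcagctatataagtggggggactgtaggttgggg
Rgs4: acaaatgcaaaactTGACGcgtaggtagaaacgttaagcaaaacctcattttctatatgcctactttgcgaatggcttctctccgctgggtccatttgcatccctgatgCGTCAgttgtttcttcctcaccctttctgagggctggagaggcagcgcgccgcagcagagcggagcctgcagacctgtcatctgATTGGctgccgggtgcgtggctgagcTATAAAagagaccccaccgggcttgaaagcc
Rgs8: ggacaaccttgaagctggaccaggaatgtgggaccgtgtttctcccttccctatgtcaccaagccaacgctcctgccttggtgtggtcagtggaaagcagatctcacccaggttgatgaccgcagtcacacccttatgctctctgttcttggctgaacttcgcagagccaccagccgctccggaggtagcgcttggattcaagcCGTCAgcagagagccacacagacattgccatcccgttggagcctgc
Rgs9: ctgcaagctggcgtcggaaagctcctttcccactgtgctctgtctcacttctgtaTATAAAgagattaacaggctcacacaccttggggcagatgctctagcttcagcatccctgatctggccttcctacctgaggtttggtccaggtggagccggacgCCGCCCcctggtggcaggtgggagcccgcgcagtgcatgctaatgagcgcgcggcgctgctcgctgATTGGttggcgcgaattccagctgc

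Rgs2, Rgs4 and Egr4 each had 2 matches to the CRE half-site, the core of the element through which cyclic AMP acts on many fast-acting genes. The first Rgs8 window had 1 such match. The windows of Rgs5, Rgs7, Rgs9 and Rgs10 and the other 2 of Rgs8 had none. Nor did those of Drd1, the gene most like Rgs9 over libraries. Whether co-variation goes with shared matches was not tested. Of the 32851 promoter windows in the table, 17.8% held at least 1, and the share with 2 was not counted. Rgs2 had 4 GC boxes, a motif found in 32.7% of windows, Rgs10 had 2 and Rgs9 had 1. The TATA box letters, in 12.4% of windows, were found in the Rgs4 and Rgs9 windows. The CCAAT box letters, in 33.8%, were found once in each of Rgs2, Rgs4, Rgs5 and Rgs9. The other 2 windows of Rgs8 also held them once each. These matches describe the letters of the reference sequence, and binding was not measured.

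Co-variation was measured as the correlation over libraries of log2 CPM after sex and generation were removed. With 100000 permutations the smallest p possible is 1e-05. Of the 36 pairs of members, 28 passed a Benjamini-Hochberg adjusted p of 0.05 over the 36, and r reached 0.3 in size in 18. How many pairs of other genes would pass was not counted, so these counts are not shown to be particular to the RGS genes. The genes Rgs2, Rgs8, Rgs9, Rgs10, Rgs14 and Rgs20 formed a block in which all pairs were positively correlated. Rgs4 joined it most closely through Rgs8, while Rgs5 and Rgs7 stood largely outside.

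Rgs4 and Rgs8, both of the R4 family, were correlated at r = 0.60 (Spearman's rho 0.51, permutation p = 1e-05, adjusted p = 1.9e-05). The value was 0.60, 0.66 and 0.52 within generations 21, 22 and 23, 0.55 without the 2 libraries farthest from the median of Rgs4, and 0.59 without the 3 libraries high in thalamic markers. Only 9 of the 22967 other genes tested were more highly correlated with Rgs4 than Rgs8 was. Both genes lie on chromosome 1, but not next to each other. Rgs4 and Rgs5 are next to each other on that chromosome, with no tested gene between, and their r was 0.30 (rho 0.28).

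Rgs9 and Rgs8 gave a pooled r of 0.37 (rho 0.62, permutation p = 1e-05, adjusted p = 1.9e-05), and this value depended on 3 libraries. It was 0.16 in generation 21 but 0.81 in generation 22 and 0.75 in generation 23. Without the 3 libraries high in thalamic markers it was 0.79 over the others, and 0.83 over the rest of generation 21. Rgs9 with Rgs4 likewise gave r = 0.19 over all libraries and 0.53 without the 3. The value for Rgs9 with Rgs14 moved the other way. Their r was 0.66 over all libraries (rho 0.41) and 0.80 in generation 21, and it was 0.36 both without the 3 libraries and in generation 21 without them. In generation 22 that pair had r = 0.17, and in generation 23 r = 0.60.

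Rgs20 was correlated with Rgs9 at r = 0.65 (rho 0.38) and with Rgs2 at 0.62 (rho 0.48), and these values were 0.54 and 0.54 without the 3 libraries. The pair of Rgs2 and Rgs20 kept r between 0.55 and 0.67 within the 3 generations. Rgs2 with Rgs9 gave 0.56 and with Rgs8 0.53, against 0.48 and 0.62 without the 3. Rgs10 was correlated with Rgs9 at 0.40, with Rgs20 at 0.37 and with Rgs14 at 0.36, and less so without the 3 libraries (0.34, 0.28 and 0.26). Rgs7 ran against Rgs14 (r = -0.27) and Rgs9 (r = -0.26), which were -0.14 and -0.12 without the 3. In generation 22 the value for Rgs7 with Rgs14 was -0.02.

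**Figure D2:**
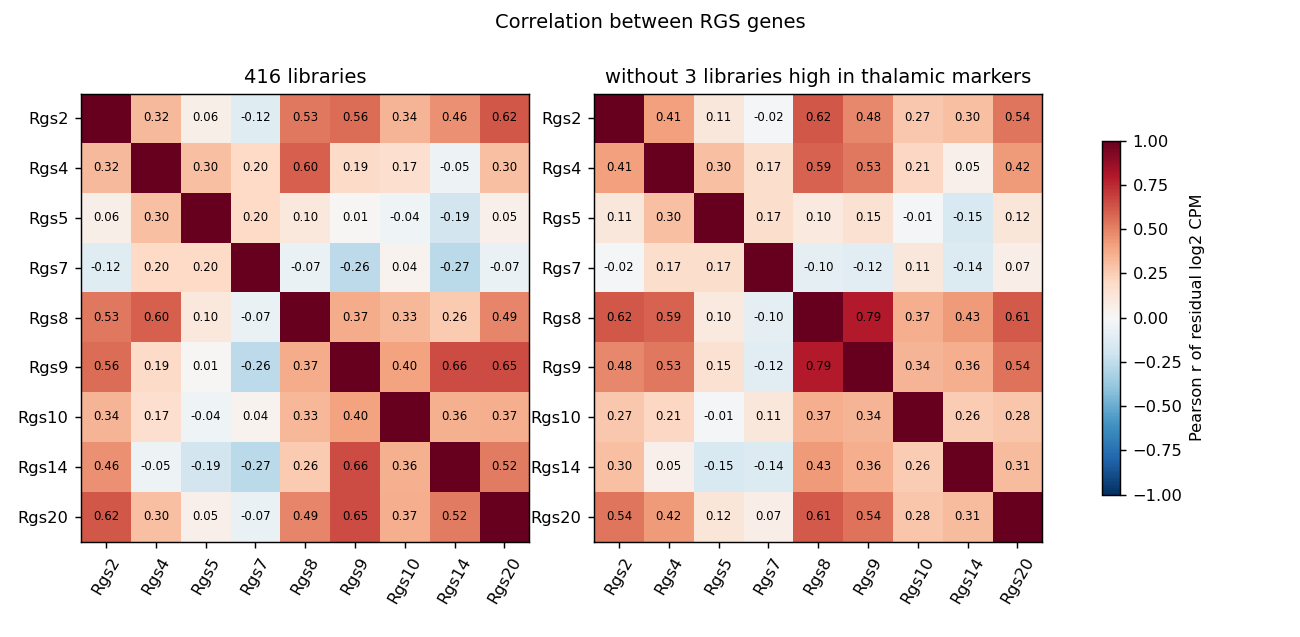
Pearson r between the 9 RGS genes over 416 libraries (left) and without the 3 libraries high in thalamic markers (right), on log2 CPM after sex and generation were removed, with the colour scale running from -1 to 1. Rgs8 with Rgs9 goes from 0.37 to 0.79 and Rgs9 with Rgs14 from 0.66 to 0.36, while Rgs4 with Rgs8 stays near 0.6.

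**Figure D3:**
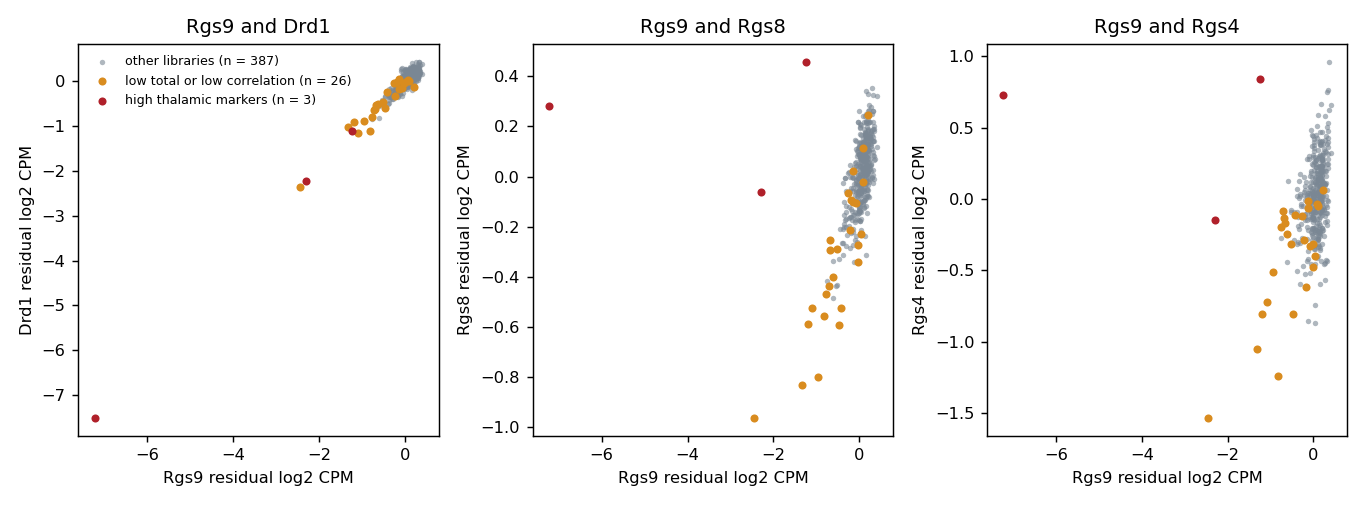
Residual log2 CPM of Rgs9 against that of Drd1, Rgs8 and Rgs4, 1 point per library, with axes that differ between panels. Red points are the 3 libraries high in thalamic markers, orange points the other 26 of low total or low correlation, and grey points all others. The red points follow the line of Rgs9 with Drd1 and lie off the trend of Rgs9 with Rgs8 and with Rgs4.

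The members were next set against scores of 19 marker lists of cell types. Of the combinations, 63.7% passed an adjusted p of 0.05 over the family, each by permutation. The share that would pass for genes other than the members was not counted. Rgs9 followed the spiny projection neuron score closely, with r = 0.96 (rho 0.80, p = 1e-05, adjusted p = 2.9e-05), 0.93 without the 3 libraries and 0.93 to 0.97 within generations. The same score had r = 0.74 with Rgs20, 0.66 with Rgs14, 0.63 with Rgs2, 0.52 with Rgs8, 0.49 with Rgs10 and 0.32 with Rgs4. Without the 3 libraries the order changed. Rgs8 then came next to Rgs9 with 0.85, followed by Rgs20 (0.65), Rgs4 (0.61), Rgs2 (0.55), Rgs10 (0.44) and Rgs14 (0.39). For Rgs5 and Rgs7 the r with this score was 0.05 and -0.19 over all libraries.

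Both classes of spiny projection neuron gave high values for Rgs9, r = 0.92 with the direct pathway score and 0.94 with the indirect pathway score. The score of 7 cholinergic interneuron markers had r = 0.74 with Rgs9, 0.59 with Rgs8 and 0.46 with Rgs4 (0.71, 0.71 and 0.59 without the 3 libraries). Scores of cortical tissue ran the other way for 7 members. Cortical excitatory neuron markers had r = -0.65 with Rgs8, close to the -0.64 without the 3 libraries, and between -0.32 and -0.39 with Rgs2, Rgs4, Rgs9, Rgs10, Rgs14 and Rgs20. For Rgs9 that value was -0.69 without the 3 libraries. Thalamic markers had r = -0.63 with Rgs9 and with Rgs14, which were -0.10 and -0.26 without the 3. With Rgs4, Rgs5 and Rgs7 the thalamic values were positive (0.19, 0.16 and 0.24). The scores of 9 lists for neighbouring tissue and non-neuronal cells together took 60.8% of the residual variance of Rgs9, 58.4% of that of Rgs14 and 50.6% of that of Rgs8, but 12% of that of Rgs5. Without the 3 libraries these shares were 65.7%, 35.96%, 49.7% and 12%.

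Rgs5 is also known as a marker of pericytes and other mural cells of vessels, and Rgs10 from microglia. Rgs5 had r = 0.17 with the score of 8 mural cell markers, 0.30 with endothelial markers and -0.03 with Pdgfrb, the defining receptor gene of pericytes. In generation 21 the mural value was -0.01. Rgs10 had r = 0.28 with the microglia score of 9 markers, less in size than its 0.49 with the spiny projection neuron score. The difference between these correlations was not tested. Rgs7 had its largest value, r = -0.42, with ependymal markers (adjusted p = 2.9e-05), and -0.37 without the 3 libraries.

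**Figure D4:**
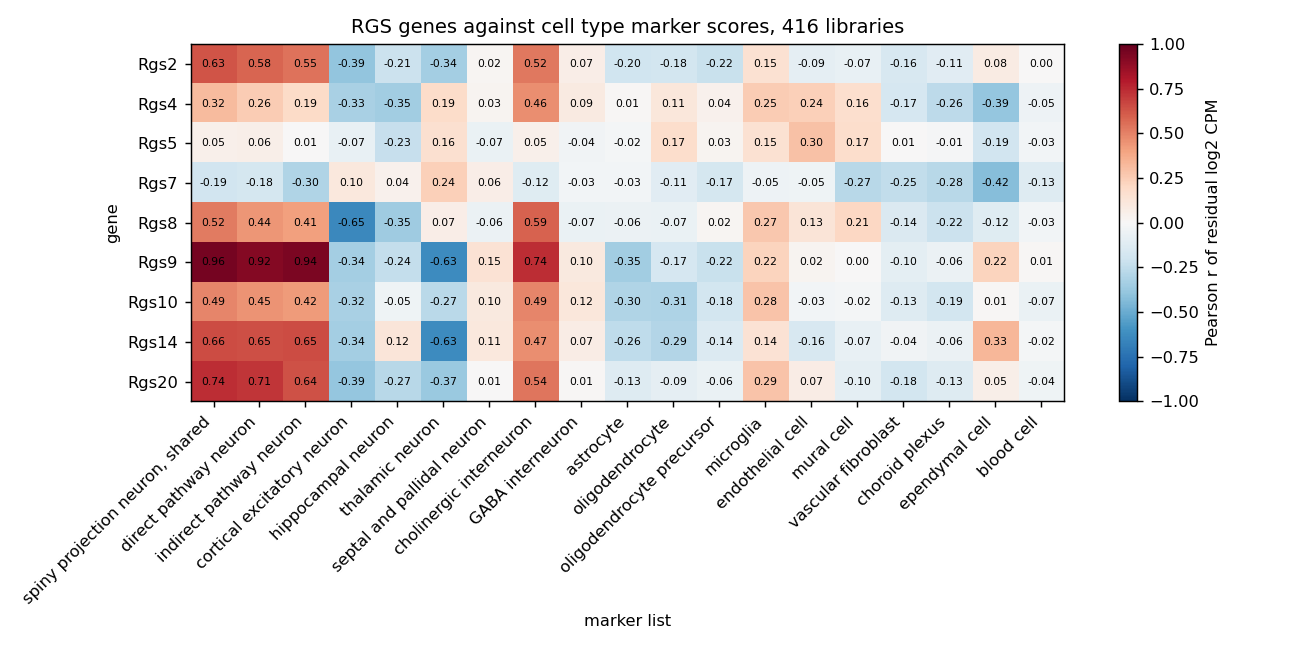
Pearson r over 416 libraries between each RGS gene (rows) and the score of each of 19 marker lists (columns), with the colour scale running from -1 to 1. The neuron lists of the striatum are on the left, where Rgs9 reaches 0.96, and Rgs8 has its largest negative value, -0.65, with the cortical excitatory neuron list.

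Genes known to work with the members, or in the same signalling path, were examined as 20 pairs, of which 17 passed the adjusted p of 0.05. Here too the share among pairs of other genes was not counted. Rgs9 was correlated with Gnb5, its binding partner, at r = 0.62 (rho 0.50, permutation p = 1e-05, adjusted p = 1.8e-05), and with the anchor gene Rgs7bp at 0.34 (0.49 without the 3 libraries). Rgs7, which shares both partners, had r = -0.13 with Gnb5 and 0.31 with Rgs7bp. The latter was 0.52 in generation 21 and 0.06 in both other generations. Rgs7 with Gpr158, a receptor that also anchors R7 proteins, gave r = 0.003 (p = 0.95).

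Of the dopamine receptor genes paired with Rgs9, Drd1 had r = 0.97, the first of all 22967 genes, and Drd2 had 0.95. Without the 3 libraries these were 0.90 and 0.89, and for Drd1 it was 0.80 without the 29 of low correlation or low total. Adcy5, the main adenylyl cyclase of the striatum, and Gnal, the alpha subunit that couples D1 receptors to it, had r = 0.88 and 0.71, and 0.92 and 0.84 without the 3. Adcy5 and Gnal are also in the spiny projection neuron list, Drd1 in the direct pathway list and Drd2 in the indirect pathway list. Substrates gave lower or negative values. Rgs14 had r = -0.38 with Gnai1 and 0.07 with Gnai3, both inhibitory alpha subunits, and Rgs20 had r = -0.29 with Gnaz. Rgs2 had r = -0.20 with Gnaq, and 0.51 with the adenosine receptor gene Adora2a (0.38 without the 3 libraries).

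The 3 genes most like each member were sought among 14900 named genes above a mean log2 CPM of 1. For Rgs2 they were Egr4 (r = 0.78), an immediate early transcription factor gene, Kcnj2 (0.77), a potassium channel gene, and Htr1b (0.77), a serotonin receptor gene. The value for Egr4 lay between 0.77 and 0.80 in the 3 generations and was 0.73 without the 29 libraries of low correlation or low total. Those for Kcnj2 and Htr1b were 0.66 each without the 29. For Rgs4 they were Pcp4 (0.68), Kctd17 (0.67) and AI593442 (0.64). For Rgs8 they were Srgap1 (0.81), the glutamate receptor gene Grm4 (0.78) and the homeobox gene Six3 (0.77). Rgs9 was closest to Drd1, to Ppp1r1b (0.96), which encodes the dopamine-regulated phosphatase inhibitor DARPP-32, and to Ankrd63 (0.96).

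For Rgs20 the genes were Ppp2r2a (0.80), Arpp21 (0.79) and the kinase gene Lrrk2 (0.79). These values were 0.65, 0.63 and 0.65 without the 29 libraries of low correlation or low total. For Rgs14 the genes were Camkv (0.79), Ddn (0.75) and Psd (0.75). The 3 values of Rgs14 were 0.62, 0.58 and 0.52 without the 3 libraries high in thalamic markers, 0.60, 0.52 and 0.48 without the 29 of low correlation or low total, and 0.58, 0.52 and 0.50 in generation 22. Rgs10 was most like Pbx3 (0.63), the calbindin gene Calb1 (0.59) and Pou3f1 (0.58). Rgs7 had 2 genes of its own stretch of chromosome 1 among its 3. They were 5730408A14Rik (0.60), which overlaps Rgs7 on the same strand so that reads of the 2 may not be fully separable, and Chml (0.60), with 4 tested genes between. The third was Ogfrl1 (0.58). The value for Chml was 0.37 in generation 22, and that for Ogfrl1 was 0.33 in generation 23. Rgs5 had no close match. Its highest values were those of Rgs7bp (0.43) and Ube2g1 (0.40), and in generations 22 and 23 these lay between 0.10 and 0.22.

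Between generations the members split by direction. Generation 23 against 21 gave 8 of 9 members past an adjusted p of 0.05 in edgeR's quasi-likelihood test, 4 higher and 4 lower. Over all 22968 genes tested, 58.3% were called in this comparison (25.8% higher and 32.6% lower), so the share of members called is to be read against a high background. The median size of the log2 difference was 0.11 over the members and 0.09 over all genes. No batch is given in the labels, so a generation and the time its libraries were prepared cannot be told apart.

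Rgs14 showed the largest difference. It ran from 3.54 to 44.9 CPM with a median of 33.3 in generation 21, from 18.5 to 44.3 with a median of 31.6 in generation 22, and from 18.2 to 47.7 with a median of 28.3 in generation 23. The 3 ranges overlapped almost fully. Its log2 difference between generations 23 and 21 was -0.17 ± 0.033 (SE, adjusted p = 6.7e-07), and -0.20 without the 3 libraries high in thalamic markers. Rgs9 fell by 0.12 on the log2 scale (SE 0.038, adjusted p = 0.0045), from a median of 693.1 CPM in generation 21 to 679.1 in generation 22 and 623.6 in generation 23. Its ranges were 4.13 to 856.4, 120.7 to 818.1 and 361.9 to 785.1 CPM and overlapped. Rgs10 and Rgs8 also fell, by 0.11 and 0.06 (adjusted p = 0.0044 and 0.0042).

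Rgs20 and Rgs5 had the largest rises between generations 21 and 23. Rgs20 had a median of 44.2 CPM in generation 21 (range 8.68 to 67.6), 48.5 in generation 22 (18.2 to 68.3) and 47.9 in generation 23 (32.7 to 67.01). Its log2 difference was 0.14 ± 0.032 for generation 23 against 21 (adjusted p = 9.3e-05) and 0.13 ± 0.034 for generation 22 against 21 (adjusted p = 0.00073). Rgs5 had means of 106.05 ± 18.96, 113.4 ± 15.7 and 115.7 ± 17.02 CPM (SD over libraries) in the 3 generations, and its differences from generation 21 were 0.10 ± 0.028 in generation 22 and 0.13 ± 0.027 in generation 23. Rgs4 rose by 0.11 in generation 22 and 0.08 in generation 23, and Rgs7 by 0.07 in both. Rgs2 was the member not called in either, with 0.10 ± 0.045 (adjusted p = 0.057) and 0.07 ± 0.042 (adjusted p = 0.16).

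Generation 22 against 21 gave 4 of 9 members called, all higher, where 46.6% of all genes were called (22.1% higher and 24.5% lower). This comparison shares the generation 21 libraries with the one before. Rgs14 (-0.06) and Rgs10 (-0.07) were not called in it, but without the 3 libraries high in thalamic markers they were, at -0.09 and -0.08 (adjusted p = 0.0077 and 0.045). Between generations 23 and 22 only Rgs14 was called, at -0.11 ± 0.035 (adjusted p = 0.013), where 18.2% of all genes were (8.53% higher and 9.63% lower). Rgs9 missed the threshold there at -0.11 ± 0.041 (adjusted p = 0.051) and passed it without the 3 libraries (-0.10, adjusted p = 0.0056). A test over all 3 generations called 8 of 9 members, all but Rgs2 (adjusted p = 0.10), against 63.8% of all genes.

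Markers of several cell types also differed between generations. Each count of markers is to be read against the 25.8% of all genes called higher and 32.6% called lower in generation 23. Of 10 cortical excitatory neuron markers, 8 were higher in generation 23 than in 21, and the median of their summed level was 137.2 CPM in generation 21, 157.5 in generation 22 and 330.1 in generation 23. The ranges of that sum were 88.8 to 1140, 93.2 to 1546 and 100.2 to 1198 CPM. Of 12 spiny projection neuron markers, 6 were lower and 1 higher (8 and 0 without the 3 libraries high in thalamic markers). Their median sums were 10957, 10763 and 10122 CPM. Of 8 thalamic neuron markers 7 were lower, with a median log2 difference of -0.55, but 2 were lower and 1 higher without the 3 libraries (median -0.01), and the median sums were 256.9, 260.8 and 264.8 CPM. Lower in generation 23 were also all 7 ependymal, all 6 indirect pathway neuron, 7 of 9 microglia and 4 of 5 blood cell markers. So were 6 of 8 mural cell, 5 of 6 oligodendrocyte precursor and 5 of 7 vascular fibroblast markers. Without the 3 libraries, 5 mural cell and 4 oligodendrocyte precursor markers were lower. Rgs5 was higher in generation 23, where most mural cell markers were lower. The part of the mural, microglia and striatal neuron markers in the members' differences was not tested. When the scores of 9 lists of neighbouring tissue and non-neuronal cells were added as covariates, the 4 members lower in generation 23 were no longer called. Rgs9 stood at 0.004 (adjusted p = 0.94), Rgs8 at 0.03 (0.11), Rgs10 at -0.04 (0.33) and Rgs14 at -0.06 (0.064). Rgs7 was not called either, at 0.02 (0.47).

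Of the 4 members called higher, all but Rgs7 stayed called in that fit. Rgs20 stood at 0.20 ± 0.032 (adjusted p = 3.4e-09), Rgs4 at 0.13 (adjusted p = 0.00014) and Rgs5 at 0.13 (adjusted p = 9.4e-05). Rgs2 was now called at 0.18 ± 0.043 (adjusted p = 0.00019). Over all genes, this fit called 49% for generation 23 against 21, 44.1% for 22 against 21 and 4.18% for 23 against 22. In the last of these no member was called, at an unadjusted p above 0.05 for all but Rgs7 and Rgs20. For generation 22 against 21 it called Rgs2, Rgs4, Rgs5, Rgs7 and Rgs20, all higher.

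**Figure D5:**
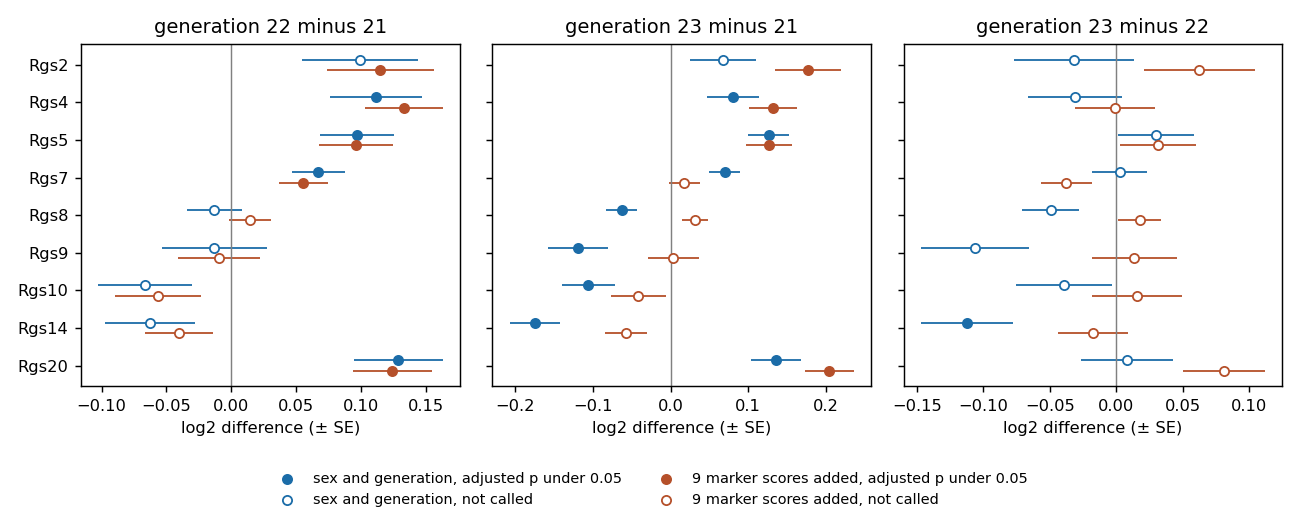
Log2 difference (± SE) of each RGS gene between generations, from edgeR with sex and generation as terms (blue) and with scores of 9 marker lists added (orange). Filled points passed an adjusted p of 0.05 and open points did not, and the horizontal axes differ between panels. For generation 23 against 21, Rgs8, Rgs9, Rgs10 and Rgs14 lie below 0 in blue and near 0 in orange, while Rgs2, Rgs4, Rgs5 and Rgs20 lie above 0 in both.

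None of the 9 members was called between the labelled sexes by edgeR, where 2.86% of all genes were. At an unadjusted p under 0.05 there were 3 (Rgs2, Rgs4 and Rgs8), DESeq2 called 1 (Rgs8) and limma voom 0. The 2.86% holds for edgeR's adjusted p, and no share of all genes is given beside these other counts. Rgs8 was closest, with a median of 217.3 CPM in libraries labelled female (range 121.6 to 276.1) and 207.04 in those labelled male (range 105.98 to 286.1). Its log2 difference of 0.05 ± 0.017 (adjusted p = 0.051) was 0.06 (adjusted p = 0.029) without the 29 libraries whose Xist goes against the label. Rgs4 stood at 0.08 ± 0.028 (adjusted p = 0.084), and at 0.09 (adjusted p = 0.046) without those 29. With the 9 marker scores as covariates 6.96% of all genes were called, and 4 members were: Rgs8 (0.07), Rgs4 (0.09), Rgs2 (0.11) and Rgs14 (0.07), all higher in libraries labelled female. The sex difference did not differ detectably between generations for any member. edgeR called 0 of 9 in the interaction test, with 0 at an unadjusted p under 0.05 and 0 by limma voom, where edgeR called 0.322% of all genes.

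The other genes of the pathway were read from 6 lists, for generation 23 against 21 in the same fit. Each count is to be read against the 25.8% of all genes called higher and 32.6% called lower. Of 13 other RGS genes, 11 were tested, with 4 higher and 3 lower. Rgs17, the close relative of Rgs20 in the RZ family, rose by 0.27 ± 0.026 (adjusted p = 4.7e-21), and Rgs6 of the R7 family rose by 0.27 ± 0.049. Rgs3 of the R4 family fell by 0.25 (0.17 without the 3 libraries high in thalamic markers). Rgs16, also of the R4 family, was called at -0.50 with all libraries but not without those 3 (0.002, adjusted p = 0.98). Its SD in generation 21 was 14.01 CPM around a mean of 6.37, against 1.402 and 1.688 in generations 22 and 23. Of 5 partners of the R7 group, Rgs7bp (0.16) and Rgs9bp (0.53, at a mean of 0.128 CPM in generation 21) were higher and Gnb5 (-0.10) and Gpr179 (-0.12) lower, the last not called without the 3 libraries (-0.10, adjusted p = 0.077).

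Against the same shares of all genes (25.8% higher and 32.6% lower), 4 of 13 alpha subunit genes were higher and 6 lower, with Gnai1 (0.24) and Gnaq (0.13) among the first and Gnai2 (-0.17) and Gna11 (-0.09) among the second. Of 14 beta and gamma subunit genes, 3 were higher, Gng2 (0.54) and Gng12 (0.20) among them. The 8 lower, 7 without the 3 libraries high in thalamic markers, included Gnb2 (-0.12) and Gng13 (-0.16). Of 29 receptor genes tested of 31 listed, 7 were higher and 11 lower. The muscarinic receptor genes Chrm3 (0.66) and Chrm2 (0.41) were higher, and Gabbr1 (-0.10) and Htr6 (-0.24) lower. Of 7 receptor kinases and arrestins, 2 were higher, Grk4 (0.23) and Grk3 (0.16). The 4 lower, 3 without the same 3 libraries, included Arrb1 (-0.04) and Arrb2 (-0.06). No gene of these lists was called between the labelled sexes.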

How the data were processed

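Bulk RNA of striatum from 416 mice was sequenced as ribosomal-RNA-depleted stranded libraries, with spike-ins added but not used, per the labels' protocols. The authors deposited estimated counts per gene for each library, of which 23.8% were not whole; they were rounded here, which moved 0.00502% of the total. The aligner, the counter and the genome build are not given in the sources used here. Gene names came from GENCODE M21, which matched 46005 of 46517 IDs (98.9%). Totals per library ran from 20331737 to 77458200, and mitochondrial transcripts took 2.95% to 7.18%. Titles number the animals, 1 library each. Where the labels do not say more of separate cages or litters, p-values measure the spread between these animals.

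Counts were filtered with edgeR's filterByExpr (minimum count 10), which kept 22968 genes, scaled by TMM and tested with edgeR 4.0.16 (quasi-likelihood, R 4.3.3) on the terms sex and generation, with Benjamini-Hochberg adjustment over all 22968 genes. limma 3.58.1 (voom) and DESeq2 1.42.0 were alternatives. Levels are CPM on TMM-scaled totals, or CPM per kb of exon of the GENCODE M21 models (GRCm38). Correlations used log2 CPM (prior count 2) after sex and generation were removed, Pearson's r and Spearman's rho, two-sided permutation tests with 100000 resamples (10000 in alternatives), and Benjamini-Hochberg adjustment over 36 pairs of members, 171 member and marker combinations or 20 partner pairs. A marker score is the mean of standardized log2 CPM over a list. Libraries were set apart where Xist crossed 100 CPM against the label, or where the total or the median correlation with other libraries was low. Python 3.11.15, numpy 2.4.6 and scipy 1.17.1 were used for correlations. The fitting was tested on simulated data.

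Named genes were the 9 members, the 3 genes of highest r for each among named genes above a mean log2 CPM of 1, up to 4 called genes of smallest p from each pathway list, both genes of each partner pair, and correlations of at least 0.3 in size. 1 gene that this rule names is not reported here. Rgs5 and Rgs7 values under 0.3, the lower microglia and mural values, and the libraries singled out were picked once their values were known. The members and lists were chosen with earlier results of these data known. Alternatives covered scaling, filters, prior count, covariates, subsets of libraries and tools, and leaving out the 3 libraries high in thalamic markers was added after seeing the data.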

Additional observations from a re-analysis of the deposited data

How the results depend on the processing

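Over the alternatives, 210 log2 differences of members kept their direction and side of the threshold, 22 newly passed it, 20 no longer did and 4 reversed. These were of all 9 members for generation 23 against 21 and of picked members in the other comparisons. Of 797 correlation values, 758 kept both, 32 lost the threshold and 7 reversed, and 32 of 36 values of spread moved by little. The correlations counted were those of at least 0.3 in size in the main run, with Rgs4 and Rgs9 added. They were picked by size in the same libraries, so the share kept says little about stability. Causes were not tested. Members called between the labelled sexes numbered 1 with RLE size factors, with a mean CPM filter of 1, with total count and mitochondrial share as covariates, with DESeq2 and without the 3 libraries high in thalamic markers, 2 without the 29 libraries against their label by Xist, 2 without the 29 of low correlation or low total, and 4 with the 9 marker scores. The share of all genes called between sexes went from 2.86% to 4.83% without the first 29, 5.74% without the second 29, 6.96% with the scores, and 0.414%, 0.318% and 0.583% in generation 21, 22 or 23 only, which hold fewer libraries. The sex difference of Rgs14 was -0.0020 in generation 21 only.

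For generation 23 against 21, members called were 4 with the scores (49% of all genes), 3 in libraries labelled female and 5 in those labelled male. The subsets by sex hold fewer libraries, and their shares of all genes are not given here. A count of members with no share of all genes beside it, here or for the sexes, is not a result about the members. With the scores Rgs9 stood at 0.0037 and Rgs8 at 0.032. For 22 against 21, in males only, 0 members (edgeR; 3 at an unadjusted p under 0.05) and 28.4% of all genes were called, against 4 and 46.6%. For 23 against 22, where 1 member was called, there were 2 with the mean CPM filter, 3 without the libraries of low correlation or low total, 2 without the 3 high in thalamic markers, 3 with total and mitochondrial share, 0 with the scores (2 unadjusted) and 0 in females only (0 unadjusted), other tools not being run on these subsets. The share of all genes called there went from 18.2% to 4.18% with the scores, 3.97% in females and 4.63% in males, and Rgs9 stood at 0.014 with the scores. Members called over any generation went from 8 to 5 with the scores. Interaction calls went from 0.322% of all genes to 0% with voom, 0.286% with no filter (where more genes were tested), 0.175% with the mean CPM filter, 0.179% without the libraries against their label, 0.0871% without those of low total or correlation, 0.192% with total and mitochondrial share and 0.0827% with the scores.

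Member and marker correlations past the threshold went from 63.7% to 36.3% in generation 22 and 39.8% in generation 23, which hold fewer libraries. Rgs20 with thalamic markers, -0.37 over all libraries, was 0.059 without the libraries of low total or correlation, 0.063 in generation 22, 0.042 in generation 23 and 0.041 without the 3 libraries. In generation 22 the thalamic values were 0.014 for Rgs2 and 0.0034 for Rgs9, and in generation 23 Rgs9 with astrocyte markers was 0.15. The SD of Rgs9 (0.46) was 0.18 without the libraries of low total or correlation, 0.29 with the scores and 0.27 without the 3, and that of Rgs14 (0.31) was 0.20 with the scores. No paired analysis was possible because the replicate numbers of the groups were given in accession order and name separate animals.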
